A study of Mus musculus with 45 samples.

Results

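The transcripts of 9 transcription factors that pattern the forebrain and midbrain (Six3, Hesx1, Lhx2, Otx1, Rax, Emx2, En1, En2 and Lhx5) were followed while male mouse ESCs (embryonic stem cells) differentiated. These genes are the 9 rows with those symbols among the 35372 rows of each of 45 RNA-seq count tables. All cultures were wild-type E14tg2a ESCs of 129/Ola background, which is a single line with no transgene. Before differentiation they were kept either in 2iL, a serum-free medium (N2B27) with LIF and the inhibitors CHIR99021 (of GSK3) and PD0325901 (of MEK), or in SL, which is serum with LIF. Differentiation took place in suspension in serum without LIF to form embryoid bodies (EB), as an adherent layer in N2B27 with Fgf2 and Activin A (FA, labelled EpiSC), or as an adherent layer in N2B27 alone (labelled neural). There was 1 library for each starting medium, condition and time point, at days 1, 1.5, 2, 2.5, 3, 5 and 7. Day 0 had 3 libraries in 2iL and 1 in SL, and day 5 in FA from 2iL was not analysed here.

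All 9 genes encode homeodomain proteins, which bind DNA and switch on or restrain the genes of a brain region. In the embryo the anterior neural plate is divided along its length while Wnt, Fgf and retinoic acid signals favour posterior fates and secreted antagonists protect the anterior end. Six3, Hesx1, Rax and Lhx2 act in the forebrain and the eye field, Lhx5 in the anterior neural border, Emx2 in the dorsal telencephalon, Otx1 in the forebrain and midbrain, and En1 and En2 at the border of midbrain and hindbrain. Hesx1 is also made in the anterior visceral endoderm, an extraembryonic tissue under the future head.

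Between 13093226 and 39804240 reads per library fell on genes, with a median of 18222720. Values are CPM, the counts of a gene scaled to a common library total, and 3 reads in a library of median depth correspond to 0.165 CPM. Most values of these genes rest on few reads. Days 1 to 2 are called early (18 libraries), days 2.5 and 3 mid (12 libraries), and days 5 and 7 late (11 libraries). The labelled identities were checked with marker lists. All 10 naive pluripotency markers were lower than at day 0 in each condition at the late days. In these comparisons 55.1% to 67.3% of all genes were called different by edgeR, at an adjusted p under 0.05. Of 10 neural progenitor and 10 neuron markers, 8 each were higher in late neural than in late EB libraries and none was lower. In this comparison 40.4% of all genes were called, in either direction. The late neural libraries also held endoderm markers, whose summed level was 1194 to 2846 CPM against 146 to 1694 in EB and 119 to 375 in FA. These are bulk cultures, so fewer cells of a type and less RNA per cell cannot be told apart.

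The level of the genes in ESCs is compared per length, as CPM per kilobase of exon, over the 4 day 0 libraries. En2 was highest at 2.28 ± 1.29 (SD, n = 4) and Hesx1 followed at 1.15 ± 0.31, a step smaller than the spread of En2. These means join both media, and in the SL library the order was the reverse, with En2 at 0.403 and Hesx1 at 0.747. Lhx2 was at 0.176 ± 0.041, above Rax at 0.0676 ± 0.0205, Otx1 at 0.0649 ± 0.0171 and En1 at 0.0624 ± 0.0436, which did not differ beyond their spread. Lhx5 (0.042 ± 0.0555), Emx2 (0.0101 ± 0.0118) and Six3 (0.00252 ± 0.00504) were close to 0. Emx2 had 2 reads and Six3 had 1 read over all 4 day 0 libraries. The order was different in the 4 late EB libraries, where En1 led at 3.05 ± 3.80 CPM per kilobase and Six3 and Rax were last at 0.219 ± 0.159 and 0.187 ± 0.221. No pair of neighbours in that order differed beyond its spread.

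**Figure D1:**
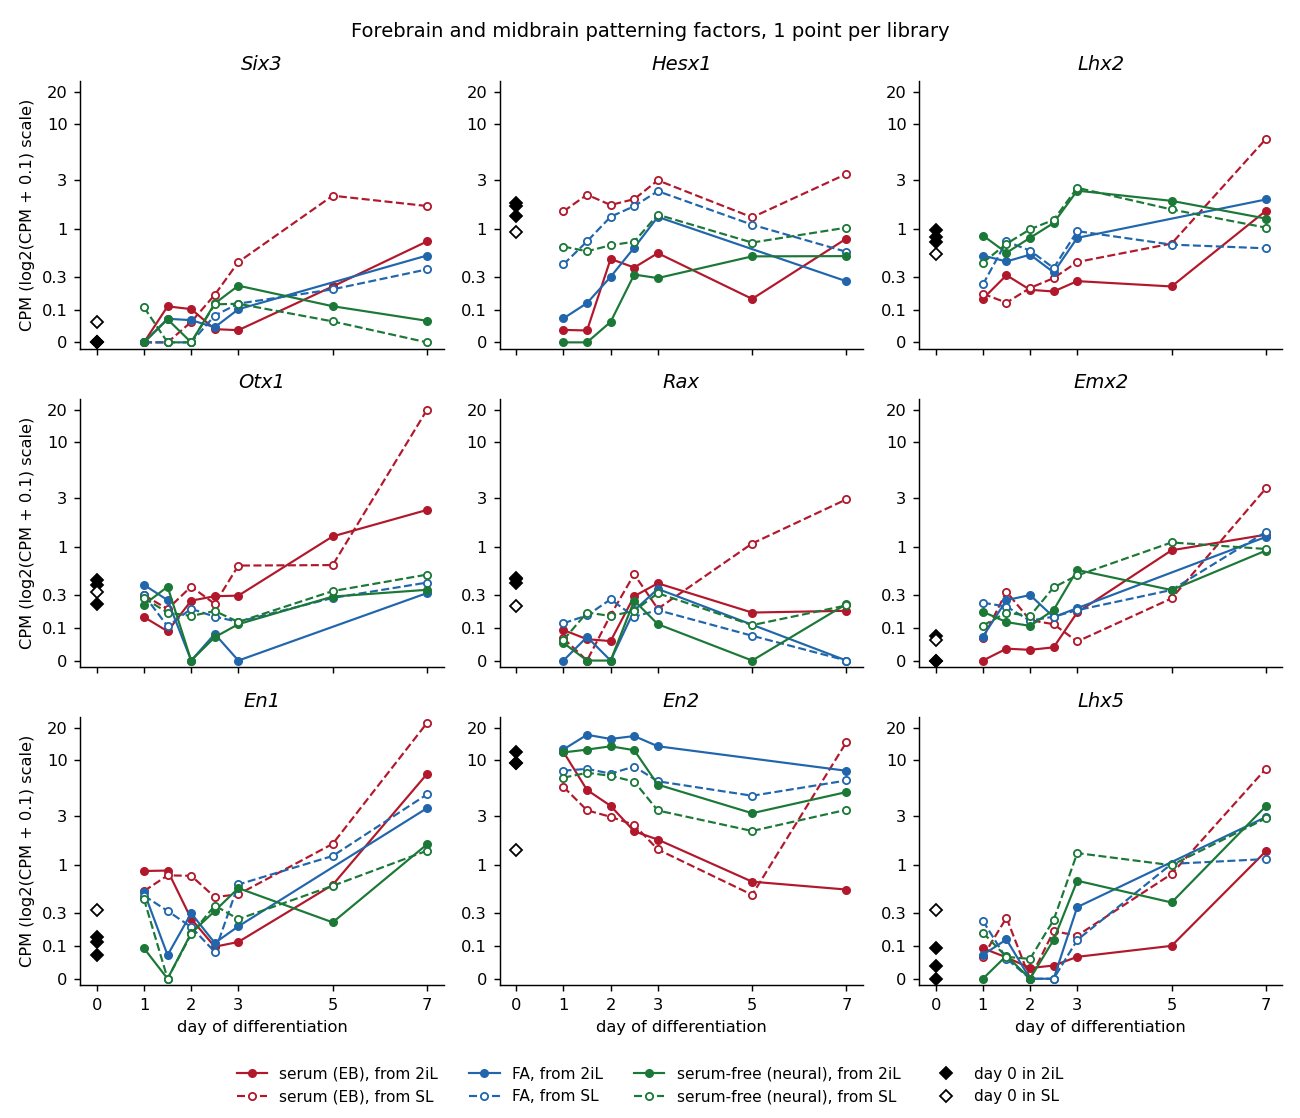
CPM of the 9 genes (on a log2(CPM + 0.1) scale) against the day of differentiation, 1 point per library, with filled points and full lines for cultures from 2iL and open points and dashed lines for cultures from SL. Six3, Otx1, Rax, Emx2, En1 and Lhx5 stay under 1 CPM through day 2, Hesx1 is at most 0.0659 CPM at day 1 in the cultures from 2iL, and day 7 of EB from SL is the highest of all 45 libraries for every gene except Six3 and En2.

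The upstream sequences of 2 members are shown because these genes gave the contrasts described below, Hesx1 between the starting media and En1 between the conditions. Both come from RefSeq (GRCm38.p6), with the CpG dinucleotides in capitals. The Hesx1 stretch ends at the base before its RefSeq start, which lies inside the longer GENCODE gene, and the En1 stretch ends at the base before the GENCODE gene.
Hesx1, chr14:27000112-27000361, positive strand: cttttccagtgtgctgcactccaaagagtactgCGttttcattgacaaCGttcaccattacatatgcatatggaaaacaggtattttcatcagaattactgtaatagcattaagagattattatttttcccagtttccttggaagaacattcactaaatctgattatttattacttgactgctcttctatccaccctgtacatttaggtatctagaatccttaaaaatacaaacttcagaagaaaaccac
En1, chr1:120602237-120602417, positive strand: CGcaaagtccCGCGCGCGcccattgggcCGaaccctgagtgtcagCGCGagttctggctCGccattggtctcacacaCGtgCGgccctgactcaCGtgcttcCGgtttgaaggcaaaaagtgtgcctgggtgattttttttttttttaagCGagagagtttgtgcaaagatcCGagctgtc

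In the 250 bases before the RefSeq start, Hesx1 has 2 CG dinucleotides and En1 has 19. The median of 32851 promoters of the same length is 6, 81.2% of them have at least as many as Hesx1, and 19.7% have at least as many as En1. Of the other members in that table, Six3 has 10, Emx2 24, and the 2 starts of Lhx2 have 25 and 24. This describes the sequence only, since no methylation or binding was measured.

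From day 0 to the late days, Emx2, En1 and Lhx5 rose in all 3 conditions, Six3 in EB and FA and Otx1 in EB. Hesx1 was called lower in all 3 conditions and En2 in EB. The Hesx1 calls were lost without the starting medium as a term. From SL, late Hesx1 values were 0.578 to 3.42 CPM, around the 0.933 CPM of day 0. All 45 libraries were fitted together by edgeR's quasi-likelihood test with the starting medium as a term, and 8 members were tested, since the filter on low counts removed Rax. In late EB against day 0, 5 of the 8 were higher and 2 were lower, where 65.5% of all genes tested were called. In late FA, 4 were higher and 1 lower against 55.1% of all genes, and in late neural cultures 3 were higher and 1 lower against 67.3%. The counts of 7, 5 and 4 of 8 are not far from the shares of all genes and are no result about the members. The median log2 fold change of the 8 was 3.08 in EB, 1.79 in FA and 1.24 in neural cultures, beside medians of all genes between -0.02 and 0. Emx2 and Lhx5 passed the filter on low counts only through late libraries, and Six3 and Otx1 only through EB libraries. These medians, which leave out Rax, are thus partly set by the filter and add no support.

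Emx2, a factor of the dorsal telencephalon, rose in all 3 conditions. It had 2 reads over the day 0 libraries and reached 0.93 and 1.33 CPM at days 5 and 7 of EB from 2iL and 0.272 and 3.72 CPM from SL. In neural cultures it was at 0.344 and 0.924 CPM from 2iL and 1.12 and 0.958 CPM from SL, and in FA at 1.27 CPM at day 7 from 2iL and 0.345 and 1.42 CPM from SL. Every late library was above every day 0 library. The pooled reads rose 63.6-fold in EB (95% exact interval 17.3 to 530), 47.1-fold in FA (12.4 to 399) and 36.6-fold in neural cultures (9.67 to 310), and the intervals cover counting error only. The edgeR log2 fold changes were 5.26 ± 0.76 (SE), 4.30 ± 0.92 and 4.72 ± 0.80, with adjusted p of 1.48e-06, 0.00034 and 1.12e-05. Emx2 passed the filter on low counts only because of the late libraries, in which it was high. These folds therefore describe those libraries, and the calls add no support.

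Lhx5, a LIM-homeodomain factor of the anterior neural border, was also called in all 3 conditions. In neural cultures it reached 3.75 CPM from 2iL and 2.87 CPM from SL at day 7, its highest day in both. In FA it reached 2.95 and 1.16 CPM at day 7, and in EB 1.38 CPM from 2iL and 8.38 CPM from SL. At day 5 it was at 0.1005 to 1.04 CPM over the 5 libraries. The day 0 libraries had 0 to 0.0934 CPM in 2iL and 0.329 CPM in SL, so the late EB library of day 5 from 2iL lay within the day 0 range. Its log2 fold changes against day 0 were 3.69 ± 0.74 in neural, 3.40 ± 0.79 in FA and 3.23 ± 0.76 in EB cultures, with adjusted p of 0.000123, 0.000855 and 0.000674 from edgeR. With EB at day 5 alone the last was 1.53 and no longer called. Lhx5 also passed the filter on low counts only because of the late libraries, so its folds describe them and the calls add no support.

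En1, which marks the border of midbrain and hindbrain, rose in all 3 conditions. It was at 0.0665 to 0.329 CPM in the day 0 libraries and at 7.51 and 22.3 CPM at day 7 of EB from 2iL and from SL, on 282 and 449 reads. Day 7 of FA had 3.59 and 4.83 CPM and day 7 of neural cultures 1.62 and 1.40 CPM. At day 5 EB had 0.628 and 1.63 CPM, FA from SL 1.24 CPM, and neural cultures 0.229 and 0.613 CPM. Its log2 fold changes against day 0 were 4.27 ± 0.53 in EB, 3.40 ± 0.57 in FA and 2.14 ± 0.56 in neural cultures, with adjusted p of 1.56e-07, 2.15e-05 and 0.00157 from edgeR. Late EB and FA were not told apart (0.86 ± 0.48, adjusted p = 0.238).

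Six3 and Otx1 were called against day 0 in fewer conditions. Six3, which represses Wnt genes in the anterior forebrain, had 1 read at day 0 and 110 reads in the 4 late EB libraries, 20 in the 3 late FA libraries and 4 in the 4 late neural libraries. Its pooled level was 83.8 times that of day 0 in EB (95% exact interval 14.7 to 3340), 33.7 times in FA (5.38 to 1395) and 5.33 times in neural cultures (0.527 to 262). The edgeR log2 fold change was 5.69 ± 1.05 in EB (adjusted p = 5.79e-05) and 3.81 ± 1.35 in FA (adjusted p = 0.0205), and the FA call was lost without 1 of the 2iL day 0 libraries or without day 7 in FA from 2iL. Otx1 was called against day 0 in late EB and not in FA or neural cultures, at a log2 fold change of 2.92 ± 0.54 (adjusted p = 3.77e-05). In FA and neural cultures its late values, 0.276 to 0.516 CPM, lay among or close to the 0.233 to 0.446 CPM of day 0.

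Lhx2 was not called in any late condition. En2 fell in late EB (log2 fold change -1.61 ± 0.58, adjusted p = 0.0183, edgeR), but the 4 libraries did not go together. Day 5 had 0.678 CPM from 2iL and 0.490 CPM from SL, and day 7 had 0.559 CPM from 2iL and 14.8 CPM from SL, above all day 0 libraries. Without day 7 of EB from SL the log2 fold change was -3.79 (adjusted p = 1.3e-08, edgeR), and without day 5 of EB from 2iL the call was lost.

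Rax, a factor of the eye field, was fitted without the filter, as an alternative chosen after seeing the data. It had 36 reads at day 0, 93 in late EB, 9 in late neural and 1 in late FA libraries. Against day 0 its level was 0.333 times as high in late neural cultures (95% exact interval 0.141 to 0.705) and 0.0467 times in late FA (0.00115 to 0.278). Of the late EB reads, 59 came from day 7 from SL, where Rax was at 2.92 CPM, against 1.09 CPM at day 5 from SL and 0.176 and 0.186 CPM from 2iL. Late neural libraries had 0 and 0.231 CPM from 2iL, around the EB values from 2iL, and 0.112 and 0.221 CPM from SL. The edgeR log2 fold change was -2.67 ± 0.82 for late neural against EB (adjusted p = 0.016) and 5.40 ± 1.26 for late EB against FA (adjusted p = 0.00607). Rax was at 0.219 to 0.476 CPM at day 0 and at 0 to 0.265 CPM in the 18 early libraries, a log2 fold change of -2.63 ± 0.61 (adjusted p = 0.000947, edgeR). From 2iL it went from 0.420 to 0.476 CPM at day 0 to at most 0.0906 CPM at the early days. From SL the early values, 0 to 0.265 CPM, lay on both sides of the 0.219 CPM of the only day 0 library.

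Between late neural and late EB cultures 3 of 8 members were called, all lower in neural cultures, against 40.4% of all genes. The count is near that share and is no result about the members. Six3 and Otx1 passed the filter on low counts only through EB libraries, in which they were high. Their folds here, against day 0 and of EB against FA therefore describe these libraries, and the calls add no support. For Six3 the 4 EB libraries had 0.226 and 0.745 CPM from 2iL and 2.12 and 1.69 CPM from SL at days 5 and 7. The neural libraries had 0.115, 0.0577, 0.0558 and 0 CPM. All EB values were above all neural ones, and the pooled ratio was 15.7 (95% exact interval 5.97 to 58.7). The edgeR log2 fold change of neural against EB was -4.05 ± 0.90 (adjusted p = 0.00103).

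For Otx1 the EB libraries had 1.28 and 2.32 CPM from 2iL and 0.653 and 19.98 CPM from SL, and the neural libraries had 0.287, 0.346, 0.335 and 0.516 CPM. The groups did not overlap, and the log2 fold change was -3.04 ± 0.54 (edgeR, adjusted p = 8.43e-05). Otx1 was also above all FA libraries, which had 0.317 CPM from 2iL and 0.276 and 0.420 CPM from SL, and the EB against FA log2 fold change was 3.42 ± 0.67 (adjusted p = 0.000914). It was the only one of the 8 called between late EB and FA, where 15.8% of all genes were called. With EB at day 5 alone, against FA at days 5 and 7, it was at 1.72 (edgeR, adjusted p = 0.065). Since Otx1 passed the filter only through EB libraries, the call against FA adds no support either.

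For En1 the EB libraries had 0.628 and 7.51 CPM from 2iL and 1.63 and 22.3 CPM from SL, and the neural libraries 0.229 and 1.62 CPM from 2iL and 0.613 and 1.40 CPM from SL. The groups overlapped at day 5 against day 7, while at each day and medium EB was the higher one. The log2 fold change was -2.13 ± 0.45 (edgeR, adjusted p = 0.000557).

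Day 7 of EB from SL stood apart from the other libraries for most members. That library held 403 reads of Otx1, 449 of En1, 299 of En2, 169 of Lhx5, 147 of Lhx2, 75 of Emx2 and 69 of Hesx1. Its neural progenitor markers summed to 397 CPM, close to the 371 CPM of day 5 from SL, and its neuron markers summed to 85.8 CPM, under those of all 4 late neural libraries. Without this library the log2 fold changes of neural against EB were -3.90 for Six3, -2.05 for Otx1 and -1.86 for En1, all 3 called. This fit kept the genes that had passed the filter in all 45 libraries. It therefore did not test whether Six3 and Otx1 pass the filter without this library. Without day 7 of both EB courses, EB at day 5 stood against neural cultures at days 5 and 7, so condition and day could not be told apart. Otx1 was then at -1.39 (adjusted p = 0.041, edgeR), En1 at -0.28 (adjusted p = 0.71) and Six3 did not pass the filter. At day 5 in both, En1 was at 0.628 against 0.229 CPM from 2iL and 1.63 against 0.613 CPM from SL. Fits within 1 starting medium gave no call, at log2 fold changes between -5.54 and -1.79 for the 3 genes. With only 2 time courses for each condition, an exact permutation test over courses could not go below 0.333.

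**Figure D2:**
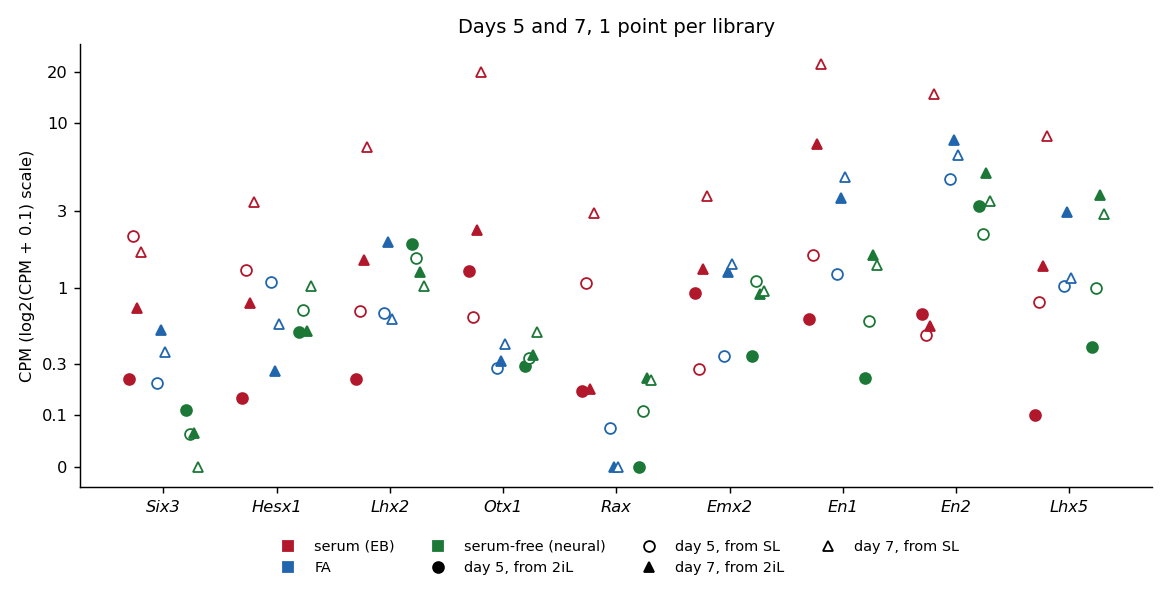
CPM at days 5 and 7 (log2(CPM + 0.1) scale) for the 9 genes, 1 point per library, coloured by condition, with circles for day 5, triangles for day 7, and filled or open points for cultures from 2iL or SL. Six3 and Otx1 are higher in every EB library than in every neural library, and the open triangle of EB from SL reaches 22.3 CPM for En1 and 19.98 CPM for Otx1.

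Between late neural and late FA cultures none of the 8 members was called by edgeR or by DESeq2, where 28% of all genes were called by edgeR. At an unadjusted p under 0.05 there was 1, En1, lower in neural cultures at a log2 fold change of -1.26 ± 0.50 (adjusted p = 0.062, edgeR). Six3 was lower in all 4 neural libraries (0 to 0.115 CPM) than in all 3 FA libraries (0.207 to 0.527 CPM), at a log2 fold change of -2.17 ± 1.17 (adjusted p = 0.18).

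At the mid days other members were called between neural and EB cultures. All 4, Lhx2, Emx2, En2 and Lhx5, were higher in neural cultures, and 33.3% of all genes were called. The count of 4 of 8 is not far from that share and is no result about the members. Lhx2, which specifies the eye field and cortical progenitors, was at 1.15 and 2.37 CPM in neural cultures from 2iL at days 2.5 and 3 and at 1.23 and 2.52 CPM from SL. EB cultures had 0.193 and 0.265 CPM from 2iL and 0.289 and 0.447 CPM from SL, so that the groups did not overlap. Its log2 fold change was 2.67 ± 0.45 (edgeR, adjusted p = 6.92e-05), and it was called under all 9 alternatives and without any 1 library.

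Lhx2 also separated neural from FA cultures, which were at 0.339 to 0.951 CPM, at a log2 fold change of 1.68 ± 0.43 (edgeR, adjusted p = 0.0154). It was the only 1 of 8 members called there, against 9.25% of all genes. The call was lost without day 3 of the neural course from 2iL and without day 2.5 or day 3 of FA from 2iL, and with the time course as a correlated block (voom, 1.64, adjusted p = 0.167). Day 3 was the day of the highest Lhx2 value in both neural courses.

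Emx2 was at 0.192 to 0.579 CPM in the mid neural libraries and 0.0322 to 0.177 CPM in EB, a log2 fold change of 2.12 ± 0.68 (edgeR, adjusted p = 0.0183) that was not called without day 2.5 of EB or day 3 of neural from 2iL, or without day 3 of EB or day 2.5 of neural from SL (1.79 to 2.87 over all fits without 1 library). Lhx5 had 39 reads in neural and 9 in EB libraries, a pooled ratio of 6.83 (95% exact interval 3.25 to 16.0). Its log2 fold change was 2.22 ± 0.83 (edgeR, adjusted p = 0.0427), and the call was lost when any 1 of the 8 libraries was left out (1.96 to 2.63).

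En2 separated EB from both other conditions. In EB it was at 2.16 and 1.80 CPM from 2iL and 2.49 and 1.44 CPM from SL at days 2.5 and 3. Neural cultures had 12.4, 5.96, 6.36 and 3.41 CPM, and FA cultures had 16.8, 13.5, 8.78 and 6.40 CPM. No EB value reached any neural or FA value. The log2 fold change was 1.82 ± 0.56 for neural against EB (edgeR, adjusted p = 0.0138) and -2.49 ± 0.56 for EB against FA (adjusted p = 0.00218). The first was lost without day 2.5 or day 3 of EB from 2iL, the second held without any 1 library. Otx1 was the other member called between EB and FA at the mid days (2 of 8, near the 22.9% of all genes). It was at 2.06 ± 0.74 (edgeR, adjusted p = 0.0445) on 36 reads in EB and 6 in FA. The call held only without day 2.5 of EB or day 3 of FA from SL. It was lost without any other of the 8 libraries (1.62 to 3.60). Otx1 passed the filter only through EB libraries, so this call adds no support.

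**Figure D3:**
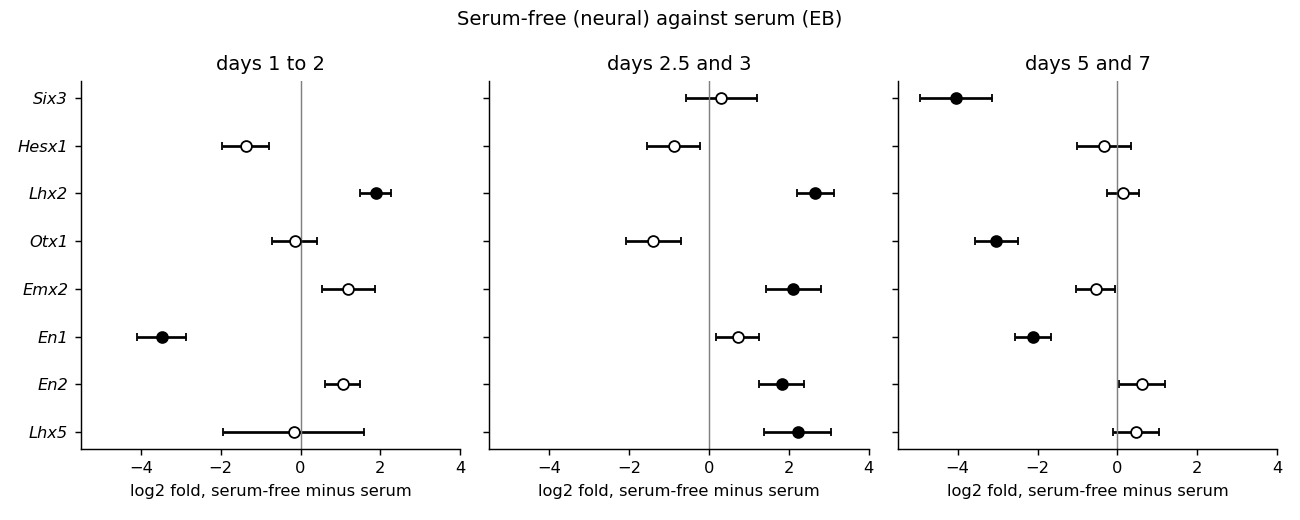
Log2 fold change of serum-free (neural) minus serum (EB) cultures for the 8 genes tested, with SE bars from edgeR, at days 1 to 2, days 2.5 and 3, and days 5 and 7; filled points passed an adjusted p of 0.05, and Six3 at days 1 to 2 had too few reads for a fold. Lhx2 lies at 1.88, 2.67 and 0.15 in turn, while Six3, Otx1 and En1 lie between -4.05 and -2.13 at the last days.

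At the early days 2 of 8 members were called between neural and EB cultures, against 25.5% of all genes. The count matches that share and is no result about the members. Lhx2 was higher in neural cultures, where the 6 libraries had 0.439 to 0.993 CPM with a median of 0.758, than in EB, with 0.132 to 0.314 CPM and a median of 0.192. Its log2 fold change was 1.88 ± 0.39 (edgeR, adjusted p = 0.000866), and with the time course as a correlated block (voom) the adjusted p was 0.0705. En1 was lower in neural cultures, with 16 reads against 120 in EB, at 0 to 0.439 CPM against 0.255 to 0.885 CPM. The pooled EB level was 4.72 times the neural one (95% exact interval 2.79 to 8.52), and the edgeR adjusted p was 0.000197. The fitted log2 fold change of -3.47 ± 0.62 includes day 1.5, where both neural libraries had no En1 read, and depends on how the fit treats a count of 0.

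The same 2 of 8 members were called between early EB and FA, a count not far from the 19.1% of all genes. Lhx2 was at -1.26 ± 0.41 (adjusted p = 0.0307, edgeR) and En1 at 1.27 ± 0.42 (adjusted p = 0.0345). With the time course as a correlated block (voom) both calls were lost, at adjusted p of 0.333 and 0.264. Leaving out 1 library at a time ended the Lhx2 call in 9 of 12 cases (all but day 1.5 of EB and of FA from 2iL and day 1 of FA from SL), with values from -1.57 to -1.04. It ended the En1 call in 6 of 12, namely days 1 and 1.5 of EB and day 1.5 of FA from 2iL, and day 2 of EB and days 1 and 2 of FA from SL, with values from 0.97 to 1.65. Neural and FA cultures did not separate at the early days, with 0 of 8 members called by edgeR or DESeq2, 1 at an unadjusted p under 0.05 (En1), and 1% of all genes called by edgeR.

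Hesx1, a repressor needed for the anterior forebrain and the pituitary, differed between the starting media in the early and mid days. At day 0 it had 1.34, 1.80 and 1.68 CPM in the 3 libraries in 2iL and 0.933 CPM in SL. At day 1 from 2iL it fell to 0.0302 CPM in EB, 0.0659 CPM in FA and 0 CPM in neural cultures, while from SL it was at 1.49, 0.420 and 0.659 CPM. Over the early days the 9 libraries from 2iL had 0 to 0.484 CPM and 30 reads in all, and the 9 from SL had 0.420 to 2.17 CPM and 198 reads. In all 9 early pairs of the same condition and day the culture from SL was higher, as it was in 6 of 6 mid and 5 of 5 late pairs.

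The early log2 fold change of 2iL against SL was -3.75 ± 0.46 (edgeR, adjusted p = 3.5e-07), and Hesx1 was the only one of 8 members called, against 35.9% of all genes. At the mid days it was -1.61 ± 0.42 (adjusted p = 0.0151), again 1 of 8 against 9.58% of all genes, and without the EB courses -1.26 (adjusted p = 0.0977). At the late days no member was called by edgeR or DESeq2, with 3 at an unadjusted p under 0.05 (Hesx1, En1 and Lhx5) and 1.08% of all genes called by edgeR.

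The change from day 0 to the early days was itself compared between the media, a test added after the values had been seen. Hesx1 was the 1 member of 8 called, against 22.5% of all genes, and its change was lower by 4.67 ± 0.89 on the log2 scale from 2iL than from SL (edgeR, adjusted p = 0.000382). Leaving out 1 library at a time gave differences between -5.10 and -4.32, all called. The only SL day 0 library could not be left out, since the SL change rests on it. Averaged over both media, Hesx1, Lhx2 and Emx2 were called between day 0 and the early days (3 of 8, against 53.5% of all genes). Hesx1 was at -2.72 ± 0.50 (adjusted p = 5.71e-05, edgeR), and at -1.47 (adjusted p = 0.118) without the medium term. Lhx2 was at -0.88 ± 0.33 (adjusted p = 0.0281), a call lost without either of 2 of the 2iL day 0 libraries, and the Emx2 rise of 2.05 ± 0.85 (adjusted p = 0.0447) was lost in 14 of 22 fits without 1 library, among them those without the SL day 0 library. Hesx1 was called lower than at day 0 in late neural (-1.87 ± 0.68), FA (-2.50 ± 0.80) and EB cultures (-1.53 ± 0.64, adjusted p = 0.0374), and without the medium term all 3 calls were lost. The neural call was also lost without day 5 or day 7 from SL, and the EB call without either late EB library from 2iL, day 7 from SL or any of the 3 day 0 libraries in 2iL (-2.06 to -1.31). From SL, late EB cultures had 1.31 and 3.42 CPM, above the 0.933 CPM of day 0. Late FA cultures from SL had 0.578 and 1.10 CPM and late neural cultures 0.725 and 1.03 CPM, on both sides of it.

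Endoderm markers went the same way as Hesx1 between the media at the early days, but the opposite way at day 0. All 10 of these markers (Sox17, Gata4, Gata6 and others) were lower in early cultures from 2iL than from SL, where 35.9% of all genes were called. Their summed level was 14.7 to 256 CPM in the 9 early libraries from 2iL and 720 to 1993 CPM in the 9 from SL. At day 0 it was 3.93 to 6.69 CPM in 2iL and 433 CPM in SL, where Hesx1 was lower than in 2iL. The part of these markers in the Hesx1 difference was not tested. From SL, the Hesx1 level was highest in EB among the conditions at every early and mid day. At days 5 and 7 from SL, the endoderm sum was 2495 and 2846 CPM in neural cultures. It was 1264 and 1694 CPM in EB and 375 and 119 CPM in FA. Hesx1 was then at 0.725 and 1.03 CPM in neural, 1.31 and 3.42 CPM in EB and 1.10 and 0.578 CPM in FA cultures.

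**Figure D4:**
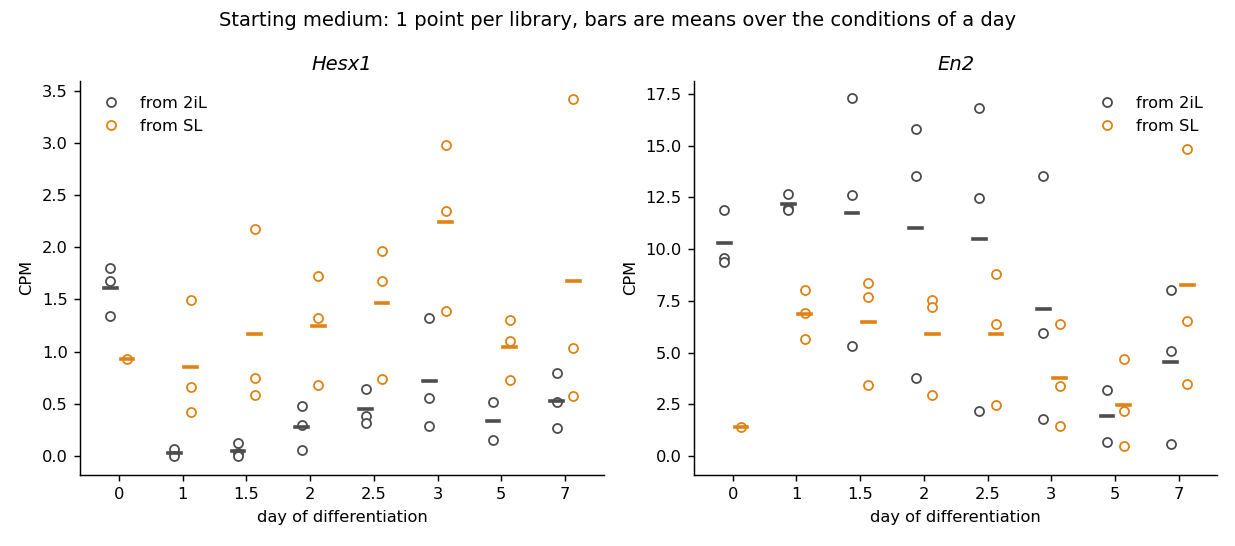
CPM of Hesx1 and En2 by day, with grey points for libraries from 2iL and orange points for libraries from SL; bars are means over the libraries of a day and medium. Hesx1 from 2iL falls from 1.34 to 1.80 CPM at day 0 to at most 0.0659 CPM at day 1 and stays under its SL counterpart, while En2 starts at 9.38 to 11.9 CPM in 2iL and at 1.43 CPM in SL.

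En2 was the member that differed between the media in ESCs. It had 9.55, 11.9 and 9.38 CPM in the 3 libraries in 2iL and 1.43 CPM in the library in SL, a log2 fold change of 2.90 ± 0.34 (edgeR, adjusted p = 0.000475). Of the members, 3 passed the filter at day 0 (En2, Hesx1 and Lhx2) and only En2 was called, against 30.8% of all genes. Only the libraries in 2iL give a spread here, because SL has 1. At day 1 En2 was at 5.68 to 8.04 CPM from SL and 11.9 to 12.7 CPM from 2iL, and the change from day 0 to the early days was not called as different between the media (-2.03 ± 1.02, adjusted p = 0.158, edgeR). En2 was higher from 2iL in 9 of 9 early pairs, where the log2 fold change was 0.88 ± 0.35 (adjusted p = 0.0507, edgeR).

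Whether the starting medium altered the late difference between neural and EB cultures was tested as an interaction. None of 8 members was called by edgeR or DESeq2, and 0% of all genes by edgeR against 18 genes by DESeq2. At an unadjusted p under 0.05, edgeR had 1 member (En2) and 885 of 15087 genes. The interaction for En2 was 3.66 ± 1.53 on the log2 scale, with day 7 of EB from SL at 14.8 CPM and from 2iL at 0.559 CPM.

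Other regional genes were compared in the same fit, where 40.4% of all genes were called between late neural and EB cultures. Of 20 hindbrain and spinal cord genes, 19 were tested and 15 were higher and 0 lower in late neural than in late EB cultures, with a median log2 fold change of 3.41 beside 0.001 for all genes. Among them was Hoxa2, a Hox gene of the hindbrain (6.98 ± 0.63). Of 25 forebrain and eye field genes, 16 were tested and 4 were higher and 4 lower, with a median of 0.18. Pou3f3 (5.91 ± 0.66) and Nr2f1 (5.00 ± 0.51), which also act outside the forebrain, were the largest. Of 19 midbrain and isthmus genes 7 were higher and 6 lower, and Fgf8, the signal of the isthmus, was lower in neural cultures at -5.17 ± 0.48, as was Otx2, the paralog of Otx1, at -3.72 ± 0.35. Otx2 was at 44.7 to 130 CPM in late EB and 2.75 to 13.8 CPM in late neural libraries.

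Signals that set the position along the axis were also compared between late neural and EB cultures, against the same 40.4% of all genes, and the shares called in the posterior, LIM partner and forebrain lists were near it. Of 22 anterior signals and antagonists 4 were higher and 8 lower in neural cultures, led by Cer1, a secreted inhibitor of Nodal and Bmp (-6.65 ± 0.82). Of 18 posterior signals and factors 17 were tested, 1 was higher (Rarb, a retinoic acid receptor, 3.66 ± 0.51) and 7 lower, Tbx6, a factor of paraxial mesoderm, among them (-2.75 ± 0.45). Of 10 partners of LIM-homeodomain factors such as Lhx2 and Lhx5, 3 were higher and 2 lower. Among the cell type markers, 5 of 10 mesoderm markers were lower and 1 higher, 9 of 10 primed epiblast markers were lower and 0 higher, and 5 of 10 endoderm markers were higher and 1 lower. The naive list had 2 higher and 1 lower of 10, and 2 of 9 neural crest and placode markers tested moved each way. The primed epiblast sum was 723 to 3455 CPM in late EB and 365 to 649 CPM in late neural libraries, and the part of these other cells in the Six3, Otx1 and En1 differences was not tested.

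The genes most like each member were taken by Pearson's r of log2(CPM + 0.5) over all 45 libraries, here with CPM scaled by TMM factors. The libraries share the time courses and their depth, so r is a description. Most of the genes listed changed with Spearman's rho in place of Pearson's r, and many with a smaller pseudocount, as given at the end. Lhx5 followed Pax2 (r = 0.916), Cdh20 (0.890) and Sox9 (0.885), and Emx2 followed Col4a6 (0.898), Pax2 (0.876) and Rmst (0.869). Pax2, a factor of the midbrain and hindbrain border, was the gene that both lists held. En1 was closest to Unc5c (0.855), Bmp5 (0.849) and Wnt10b (0.844), Otx1 to Lgi1 (0.872), Grem1 (0.795) and Wnt8b (0.775), and Six3 to Fam107a (0.830), Rspo3 (0.796) and Aplnr (0.773). Lhx2 was closest to Mylk (0.825), Klhl29 (0.818) and Pknox2 (0.810), Hesx1 to Ctsc (0.829), Gcnt4 (0.740) and Slc7a9 (0.736), and for Rax the values included Fga (0.781) and Spp2 (0.679). Between members the highest values were 0.859 for Emx2 and Lhx5, 0.800 for Emx2 and En1 and 0.799 for En1 and Lhx5, and the lowest was -0.365 for Six3 and En2.

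En2 was closest to Slc10a7 (r = 0.837), Cnpy1 (0.813) and Txnrd3 (0.804). Cnpy1 lies near it on the opposite strand of chromosome 5, from 28200819 to 28245806 on GRCm38, with 28.7 kb between the genes and 1 other annotated gene closer. Cnpy1 had 52.4, 66.6 and 42.3 CPM at day 0 in 2iL and 17.3 CPM in SL, and En2 was likewise higher in 2iL. In mid EB cultures it was at 5.95 to 12.3 CPM against 42.0 to 69.1 CPM in FA, again without overlap.

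On GRCm38, En2 (ENSMUSG00000039095) spans 28165694 to 28172166 on chromosome 5, En1 spans 120602418 to 120607992 on chromosome 1, Hesx1 spans 26994416 to 27002329 on chromosome 14 and Otx1 spans 21994764 to 22002897 on the negative strand of chromosome 11. Six3 lies at 85613608 to 85629302 on chromosome 17, Lhx2 at 38339281 to 38369733 on chromosome 2, Emx2 at 59458372 to 59465357 on chromosome 19 and Lhx5 at 120431699 to 120441223 on chromosome 5. Six3, Rax, Emx2 and Lhx5 share exon bases with genes on the opposite strand (Six3os1 and Gm28528, Raxos1, Emx2os and Gm27199), from which the strand-specific counting separates them.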

How the data were processed

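RNA depleted of ribosomal RNA was sequenced strand-specifically. The authors used TrimGalore for trimming, TopHat2 for mapping to GRCm38 with Ensembl annotation, and featureCounts for strand-aware counting, and the deposited values are raw counts per gene with no normalization. CPM uses the library total, scaled by the TMM factor only for the similarity of genes. Counts were fitted with edgeR 4.0.16 (R 4.3.3; TMM factors, filterByExpr, Benjamini-Hochberg adjustment over all genes, threshold 0.05). Conditions and days 0 to 7 were compared in a fit of 45 libraries with condition by day and starting medium, and contrasts average the days of a window. Media were compared in 41 libraries from day 1, with medium by day and condition. SE is the log2 fold change over the root of F. Alternatives used DESeq2 1.42.0 and limma 3.58.1 (voom, the time course as a correlated block). Fits without 1 library kept the genes tested and the dispersion trend of the full fit. Fits were tested on simulated counts.

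Libraries of a time course may share a starting culture and separate cultures are not stated, so p-values measure only the spread between these libraries, which may be technical. The 3 day 0 libraries in 2iL differed from each other beyond sampling noise. The labels give no replicate numbers. The members, the lists and their rules were chosen with earlier results of these data known. Named genes are the 9 members, the 3 genes most like each (among those with at least 1 CPM in at least 2 libraries) and up to 4 of each list with the largest fold changes. Six3 had too few early reads for a fold change there. Fits without day 7 of EB, for Rax without the filter, and the media by day 0 interaction were added after seeing the data. Gene positions come from GENCODE on GRCm38. Some genes that the rule for named genes selects are not reported here.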

Additional observations from a re-analysis of the deposited data

Results flagged for a closer look

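The early change of Hesx1 differed between the starting media. From day 0 to days 1 to 2, Hesx1 fell in cultures from 2iL, from 1.34 to 1.80 CPM to 0 to 0.484 CPM, while cultures from SL went from 0.933 CPM to 0.420 to 2.17 CPM. The difference of the changes, 2iL minus SL, was -4.67 on the log2 scale (edgeR interaction, added after the values were seen, SE 0.89, adjusted p = 0.000382). The SL side has a single day 0 library, at 0.933 CPM. The summed endoderm markers were 433 CPM in that library and 3.93 to 6.69 CPM in the 3 libraries in 2iL, and their part in the difference was not tested.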

How the results depend on the processing

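No result reversed. Of the tests of called members refitted under the alternatives and without single libraries, 555 kept direction and call and 115 kept the direction and lost the call. Counts of the 8 members called changed as follows, and the cause was not tested. Late neural against EB (3) gave 0 in libraries from 2iL only and 0 from SL only. Late neural against FA (0) gave 1 with library totals in place of TMM and 2 without the 2iL EB course. Late EB against FA (1) gave 2 with no filter, 2 with voom, 3 without the 2iL EB course, and 0 from 2iL only and 0 from SL only. Mid neural against EB (4) gave 2 each with voom, with the compared days only and from 2iL only. Mid neural against FA (1) gave 2 with DESeq2 and with the compared days only, and 0 with voom and from 2iL only. Mid EB against FA (2) gave 1 with DESeq2, no filter, no medium term, voom, without the 2iL EB course, from 2iL only and from SL only. Early neural against EB (2) gave 1 with voom and from 2iL only and 4 without the 2iL EB course. Early EB against FA (2) gave 1 with no medium term and from 2iL only and 0 with voom. Late neural against day 0 (4) gave 7 without the 2iL EB course and 2 from 2iL only, and early against day 0 (3) gave 1 with voom. For 2iL against SL, early (1) gave 2 with DESeq2, the compared days only and without the EB courses, and mid (1) gave 0 without the condition term and 2 with the compared days only. Leaving out 1 library at a time gave 3 to 4 members in late neural against EB, 0 to 1 in late neural against FA, 1 to 2 in late EB against FA, 1 to 3 in mid neural against EB, 0 to 1 in mid neural against FA, 1 to 2 in mid EB against FA, 0 to 2 in early EB against FA, 1 to 4 in early against day 0, 1 to 2 in early 2iL against SL and 0 to 1 in late 2iL against SL.

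Counts of all genes called moved by over 1.5 times as follows. Late neural against EB (6591) gave 4236 without the 2iL EB course and 0 and 158 within 2iL and SL. Late neural against FA (4563) gave 0 and 471 within the media. Late EB against FA (2579) gave 1523 with no medium term, 1425 without the 2iL EB course and 0 and 8 within the media. Mid neural against FA (1509) gave 815 with no medium term, 501 with voom, 712 within 2iL and 596 to 969 without single libraries. Mid EB against FA (3735) gave 2381 with voom, 2340 without the 2iL EB course and 2145 without day 3 of FA from 2iL. Early neural against EB (4154) gave 1711 and 2248 with voom and without the 2iL EB course. Early EB against FA (3110) gave 2026 with no medium term, 938 with voom, 4746 with the compared days only and 1509 without the 2iL EB course. Early neural against FA (164) gave 406 with DESeq2, 944 with library totals, 29 with no medium term, 10 with voom, 757 with the compared days only, 768 within 2iL and 18 to 83 without single libraries. Mid 2iL against SL (1548) gave 516 without the condition term, 2723 with the compared days only and 812 to 985 without single libraries, and late 2iL against SL (174) gave 484 with DESeq2, 70, 13 and 312 without the condition term, with the compared days only and without the EB courses, and 90 to 967 without single libraries. The late interaction (0) gave 18 with DESeq2. With library totals, the share of higher calls went from 50.3% to 38.7% in late, 49.9% to 35.5% in mid and 45.4% to 29.6% in early neural against EB, from 47.7% to 30.3% in mid and 49.4% to 11% in early neural against FA, and from 47.7% to 37.2% in late 2iL against SL, while the median log2 fold change of all genes moved to -0.101 in late and -0.111 in mid neural against EB and to -0.119 in early neural against FA. Of the 27 most similar genes, 5 were shared with Spearman's rho and 13 with a pseudocount of 0.1. Reads limit the lowest genes, since Six3 and Emx2 had 1 and 2 reads at day 0. No replicate block was fitted because the labels give no replicate numbers, and libraries of matched condition and day are compared through the terms of the fits.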
